A study of Homo sapiens with 3 samples.

Results

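Metallothionein-high cells were the treated OVCAR3 cells that spent the largest part of their mRNA on metallothioneins. OVCAR3 is an established line derived from a high-grade serous carcinoma of the ovary. Single-cell libraries were available here for cells given the vehicle DMSO, for cells given 50 μM of the RAC1 inhibitor NSC23766 (RAC1i) and for cells given the same RAC1i dose with 5 μM of the EZH2 inhibitor GSK126 (Combo), each for 48 h, with 1 library per condition. RAC1 is a small GTPase of the actin cytoskeleton and EZH2 is the catalytic subunit of the Polycomb repressive complex that methylates histone H3. All libraries came from 1 cell line grown in the same medium, and the labels name no genetic change in any group.

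For each cell, the UMIs (unique molecular identifiers, each standing for 1 captured mRNA molecule) of MT2A, MT1X, MT1E, MT1F and MT1G were summed and divided by the cell's total. The members were the 10% of cells with the largest share in the RAC1i library (920 cells) and in the Combo library (735 cells), among kept cells with 5000 or more UMIs. They made up 1655 of 16554 such treated cells, and of 25985 kept cells in all 3 libraries. The 10% with the smallest share in the same library (920 and 735 cells) served as metallothionein-low cells. DMSO cells ranked by the same rule gave 672 cells in each group. Levels are given as CPM, which is a gene's total UMIs in a group of cells divided by all UMIs of that group and scaled to 1000000. The libraries count the 3′ end of each mRNA, so these values do not scale with the length of a gene. A ratio is the CPM of the high cells over that of the low cells, with an exact 95% interval that covers counting error only.

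Metallothioneins are small cysteine-rich proteins that bind zinc, copper and cadmium and hold most of the exchangeable zinc of a cell. Their genes are induced when free zinc or other metal ions activate the transcription factor MTF1, which binds short metal response elements in their promoters, and the zinc exporter gene SLC30A1 is regulated in the same way. Glucocorticoids and oxidative stress also induce them. In epithelial tumours, metallothionein levels differ widely between cells.

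The promoters of several metallothionein genes carried repeated copies of the core of the metal response element. The core was searched as TGCACNC and TGCGCNC on both strands in the 250 bases before the start of each RefSeq gene (GRCh38.p14). At least 1 copy was present in 24.7% of 27305 promoters, at least 4 copies in 0.366% and at least 5 copies in 0.121%. Among the 4506 genes compared in both treated libraries below that had an entry, 34.7% carried at least 1 copy. The MT2A promoter held 7 copies, that of MT1H 8, that of MT1X 4, that of MT1B 3, that of the vesicular zinc transporter gene SLC30A2 3 and that of SLC30A1 1. Among other genes described below, GADD45G had 2, GADD45B and HES1 had 1 each, and none was found in the windows of SLC39A10 and TNF. MT1E, MT1F, MT1G, MT1M, MT1A, MT3 and HMOX1 had no entry. The 150 bases before the start are shown, 5′ to 3′ on the strand of the gene, for a pair of genes that chose the cells, for 1 metallothionein that did not and for 2 zinc transporters, with the core in capitals. They lie at chr16:56608434-56608583 (MT2A, plus strand), chr16:56682320-56682469 (MT1X, plus), chr16:56651736-56651885 (MT1B, plus), chr1:211579162-211579311 (SLC30A1, minus) and chr1:26046119-26046268 (SLC30A2, minus).
MT2A: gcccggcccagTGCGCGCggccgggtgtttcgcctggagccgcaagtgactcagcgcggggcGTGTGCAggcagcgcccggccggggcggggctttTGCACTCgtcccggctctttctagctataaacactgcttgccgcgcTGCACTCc
MT1X: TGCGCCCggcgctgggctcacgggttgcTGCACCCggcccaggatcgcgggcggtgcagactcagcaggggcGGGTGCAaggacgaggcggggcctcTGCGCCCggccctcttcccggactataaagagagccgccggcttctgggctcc
MT1B: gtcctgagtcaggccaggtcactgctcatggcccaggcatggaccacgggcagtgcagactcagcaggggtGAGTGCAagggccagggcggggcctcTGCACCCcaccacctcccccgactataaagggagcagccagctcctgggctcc
SLC30A1: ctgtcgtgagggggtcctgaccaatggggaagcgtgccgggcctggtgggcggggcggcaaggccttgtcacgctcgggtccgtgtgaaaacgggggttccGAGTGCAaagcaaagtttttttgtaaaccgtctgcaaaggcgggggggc
SLC30A2: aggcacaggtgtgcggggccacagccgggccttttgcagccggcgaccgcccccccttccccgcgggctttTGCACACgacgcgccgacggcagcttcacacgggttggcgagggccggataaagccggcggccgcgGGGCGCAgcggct
These stretches hold 4, 4, 2, 1 and 2 copies in that order. A copy of the core is a match of letters and not a measured binding site.

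Metallothionein share spread over a wide range among treated cells and over a narrow one among DMSO cells. The median share over all eligible cells was 0.660% of UMIs in RAC1i and 1.00% in Combo, against 0.0163% in DMSO. At least 1% of the UMIs came from the 5 genes in 3460 of 9200 RAC1i cells (37.6%) and 3680 of 7354 Combo cells (50.0%), and in 0 of 6725 DMSO cells. A share of 10% or more was reached by 9 RAC1i cells and 42 Combo cells. Members had a median share of 3.65% in RAC1i (range 2.66 to 13.4%) and 5.62% in Combo (range 4.17 to 22.6%), and held 26.5% and 24.4% of all UMIs of the 5 genes. Low cells had medians of 0.0360% and 0.0692%, which is above the median of all DMSO cells, and the DMSO cells ranked highest had a median of 0.0616%. The limits of the groups cut through a continuous distribution. The last RAC1i cell inside the high group had 2.66166% and the first outside 2.6613%, and in Combo these were 4.17199% and 4.17147%. At the lower limit they were 0.0640721% and 0.0642674% in RAC1i and 0.120755% and 0.120905% in Combo.

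**Figure D1:**
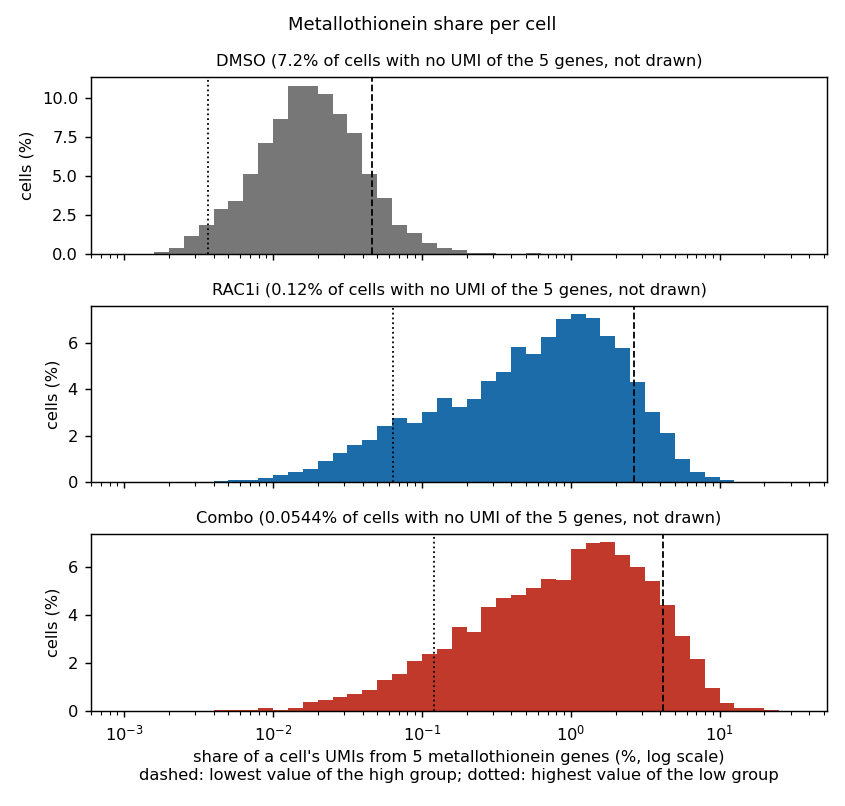
Histograms of the share of UMIs from the 5 metallothionein genes per cell (x axis, percent on a log scale) against the percent of cells (y axis) in DMSO, RAC1i and Combo, with the limits of the high group (dashed) and the low group (dotted). The treated distributions are broad and have no gap at either limit, with medians of 0.660% in RAC1i and 1.00% in Combo against 0.0163% in DMSO.

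The high cells were shallower than the rest, and this touches every comparison below. Their median depth was 12291 UMIs in RAC1i and 12267 in Combo, against 26496 and 33869 in low cells, with 2983 and 2826 genes detected against 4946 and 5630. Their median mitochondrial share was 2.12% and 2.39%, against 1.41% and 1.33%. In the kept cells left out for having under 5000 UMIs, the 5 genes took 2.66% of the UMIs in RAC1i and 3.19% in Combo, against 0.893% and 1.29% over all kept cells. Each comparison was therefore repeated with cells ranked within 10 bins of total UMIs (called depth-matched below), which gave high and low groups with medians of 23016.5 and 23012.5 UMIs in RAC1i and 27476.5 and 27487.5 in Combo. Depth matching kept 604 of the 920 RAC1i members (65.7%) and 414 of the 735 Combo members (56.3%). The part of depth in the other results, beyond what these values show, was not tested. Cell barcodes shared between libraries numbered 15 to 23 a pair, and none was shared by the members of both libraries. Markers of blood cells summed to 20.6 CPM in RAC1i members and 24.0 CPM in Combo members (9.95 and 8.99 CPM in low cells), and those of fibroblasts and endothelium to 14.4 and 13.2 CPM (5.09 and 5.85 CPM). None of these 23 genes reached 20 CPM. PTPRC, CD3D, CD3E, NKG7 and LUM were at 0 in the members of both libraries.

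Cells were ranked on a random part of their UMIs, and the metallothionein level was read on the UMIs not used. Values were nearly the same for the members, and farther apart for low cells and in DMSO. On the unused UMIs, the level of the 5 genes was 38293 CPM for RAC1i members and 59719 CPM for Combo members, against 38567 and 59779 CPM on all UMIs. Of the 920 RAC1i members chosen on 1 part, 838 were also chosen on the other, and of the 735 Combo members 690. In DMSO, 326 of 672 were chosen on both. These counts come from the genes that chose the cells and are a description.

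The genes that defined the cells were not equally represented. MT2A carried 77.2% of the score UMIs of RAC1i members and 76.0% of those of Combo members, MT1X 20.1% and 21.4%, MT1F 2.27% and 2.02%, and MT1G 0.373% and 0.628%. MT2A stood at 29776 CPM in RAC1i members and 239 CPM in low cells, and at 45429 and 465 CPM in Combo. Between single members, the median MT2A level was 27854 CPM in RAC1i, and 10% of members were at or below 20873 CPM and 10% at or above 46793 CPM. In Combo the median was 43065 CPM, with the same limits at 32733 and 68939 CPM. MT1X stood at 7770 against 62.6 CPM in RAC1i and at 12768 against 113 CPM in Combo. MT1F stood at 876 against 61.6 CPM and at 1207 against 97.7 CPM. In low cells MT1F thus made up 16.9% and 14.4% of the score UMIs, a larger part than in the members. MT1E, although in the score, had 19 UMIs in all RAC1i members and 15 in all Combo members. Because these values chose the cells, they are a description. Metallothionein genes are close copies of each other, and how reads common to several of them were assigned is uncertain for each single gene.

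Apart from MT1HL1 on chromosome 1, the genes of the MT1 and MT2A group lie in 1 cluster on chromosome 16. It runs from MT2A at chr16:56608584-56609497 to MT1X at chr16:56682470-56684196 (GRCh38), and the levels of the genes did not follow their order there. MT2A at one end and MT1X at the other were the most abundant. Between them, MT1E, MT1M, MT1A, MT1B, MT1F, MT1G and MT1H followed in that order with 1.38, 25.7, 1.67, 215, 876, 144 and 14.1 CPM in RAC1i members, and with 1.39, 40.2, 3.33, 564, 1207, 375 and 33.6 CPM in Combo members. In DMSO cells MT2A stood at 134 CPM, MT1X at 57.4 and MT1F at 24.5, and MT1B, MT1G and MT1M each at under 0.1 CPM. MT3, the neuronal metallothionein, was at 0.507 and 1.48 CPM in members and 0.118 and 0.407 CPM in low cells.

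**Figure D2:**
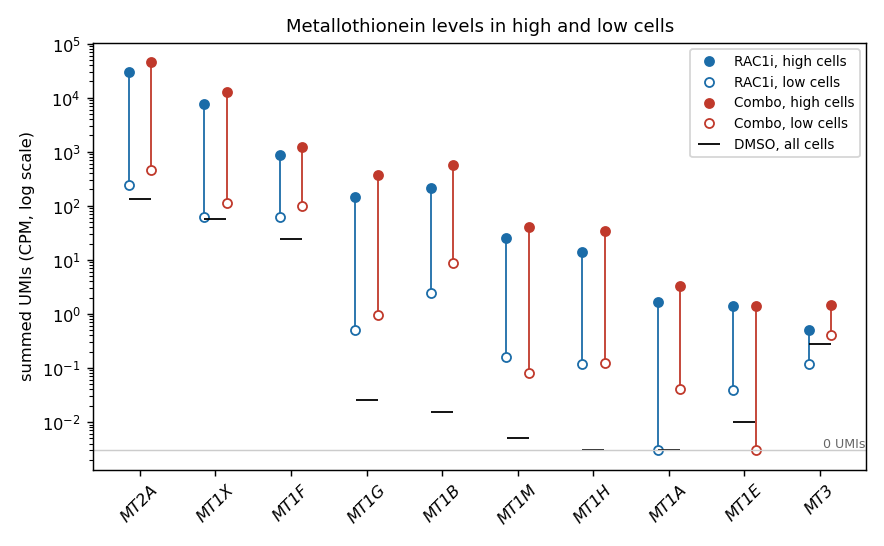
Summed level of each metallothionein gene (y axis, CPM on a log scale, 0 drawn at the grey line) in metallothionein-high cells (filled circles) and low cells (open circles) of RAC1i and Combo, and in all eligible DMSO cells (black dashes). MT2A, MT1X and MT1F stood above 20 CPM in every group drawn, while MT1G, MT1B, MT1M and MT1H were at or under 10 CPM in low cells and near 0 in DMSO.

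Metallothioneins that did not choose the cells also had higher levels in the members. MT1B and MT1M passed the limit of 20 CPM used below through the high cells alone, which favours large ratios, so their values are a description. MT1B had 2968 UMIs in RAC1i members and 61 in low cells (215 and 2.41 CPM, ratio 89.3, 95% interval 69.3 to 117), and 6103 and 211 in Combo (564 and 8.58 CPM, ratio 65.7, 57.3 to 75.8). MT1M had 355 UMIs in RAC1i members and 4 in low cells, and 435 and 2 in Combo. MT1H had 194 and 3 UMIs, and 364 and 3. MT1A had 23 and 0 UMIs, and 36 and 1. Both MT1HL1 and MT4 had at most 2 UMIs in any of these groups. With cells matched on depth, MT1B kept ratios of 61.4 and 60.1.

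Within the members, the minor metallothioneins were concentrated in a subset of cells. At least 1 MT2A UMI was present in every member, and MT1F was seen in 98.7% of RAC1i members and 98.8% of Combo members. MT1G was seen in 301 of 920 RAC1i members (32.7%), with a mean of 6.59 UMIs per member that had any and up to 154 in 1 cell, and in 363 of 735 Combo members (49.4%), with a mean of 11.2 and up to 268. MT1B was seen in 31.4% and 37.7% of members, with means of 10.3 and 22.0 UMIs and up to 146 and 532. MT1M was more uneven than MT1G and MT1B. It was seen in 58 RAC1i members (6.30%) and 35 Combo members (4.76%), with means of 6.12 and 12.4 UMIs, and the 10 members with the most MT1M held 52.7% and 65.7% of its UMIs. For comparison, the 10 members with the most MT2A held 4.19% and 4.33% of its UMIs, and those with the most SLC30A1 9.35% and 12.4%. Which cells held these genes overlapped in part. MT1B was seen in 123 of the 301 RAC1i members with MT1G (40.9%) and MT1G in 42.6% of those with MT1B. In Combo, 163 members had both, 44.9% of those with MT1G and 58.8% of those with MT1B. No cell type without these genes was present to measure the share that free RNA gives.

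Across all genes, lower levels outnumbered higher ones in the high cells. Genes with at least 20 CPM in either group were compared, without the 5 score genes, and a gene was called at a ratio of 1.5 or more in either direction. In RAC1i, 613 of 5694 genes (10.8%) were higher and 2213 (38.9%) lower in high cells. In Combo, 529 of 5827 (9.08%) were higher and 2807 (48.2%) lower. The median log2 ratio over all genes compared, on CPM plus 1, was −0.38 in RAC1i and −0.54 in Combo, so the values of single genes and lists are read against this shift. The counts of the gene lists below are set against the shares of all genes (10.8% higher and 38.9% lower in RAC1i, 9.08% and 48.2% in Combo), and a count near them is no result about the list. A gene that passed 20 CPM through 1 group alone had to differ in that direction, so these counts are a description. The falls named below that passed 20 CPM in RAC1i through the low cells alone include PAX8, RRM1, TNIP2, DUSP8, SLC30A5, SCO2, MUC1 and BAK1. Their ratios are a description too. Of 5550 genes compared in both libraries, 455 (8.20%) were higher in both, 2126 (38.3%) lower in both and 0 (0%) called in opposite directions. After depth matching, 439 of 5635 genes (7.79%) were higher and 1569 (27.8%) lower in RAC1i, 371 of 5798 (6.4%) higher and 1835 (31.6%) lower in Combo, and 302 of 5508 (5.48%) higher and 1361 (24.7%) lower in both, with 0 called in opposite directions. Genes called both before and after matching numbered 424 higher (7.58% of the 5597 compared each time) and 1531 lower (27.4%) in RAC1i, and 324 higher (5.65% of 5730) and 1748 lower (30.5%) in Combo. The same rule in DMSO gave 60 of 5980 genes higher (1%) and 98 lower (1.64%), and after depth matching 36 of 6020 higher (0.598%) and 78 lower (1.3%). The DMSO ranking rests on few UMIs of the 5 genes, with a median of 15 in high cells and none in 484 of 672 low cells. Of its high cells, 326 of 672 were chosen on both parts of their UMIs. The small DMSO counts thus cannot show that such differences are absent there. No p-value is given for any of this, since each condition is 1 library and cells are not replicates. The 2 comparisons use separate cells, and both sets of cells received RAC1i. With TMM scaling in place of the total UMIs, the split in Combo moved from 529 higher and 2807 lower (15.9% of calls higher) to 793 higher and 2107 lower (27.3%), with a median of −0.31.

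**Figure D3:**
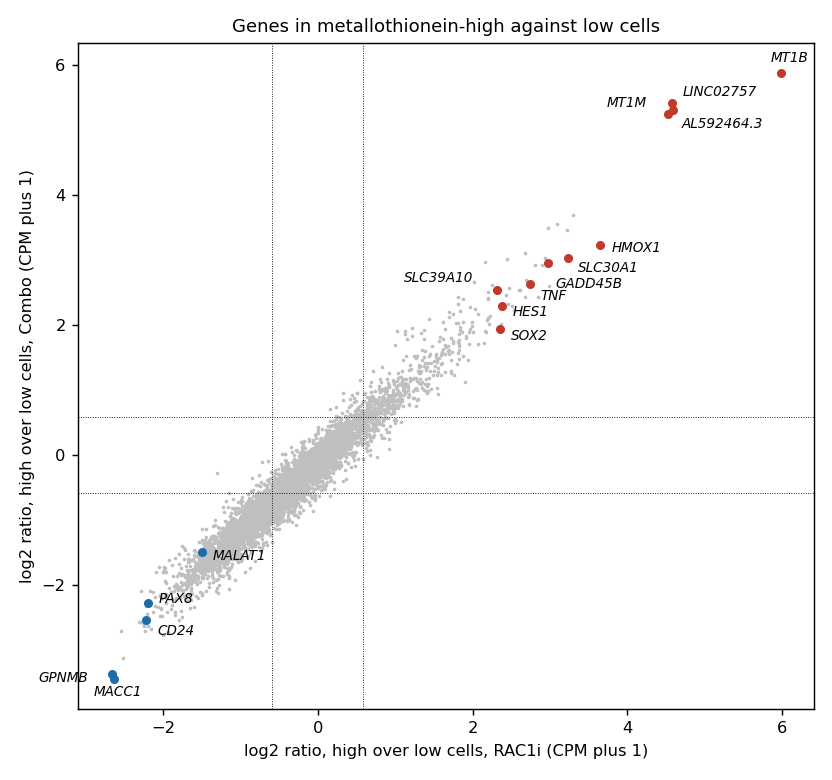
Log2 ratio of metallothionein-high over low cells in RAC1i (x axis) and Combo (y axis), on CPM plus 1, for the 5550 genes compared in both libraries, with dotted lines at 1.5-fold. Named genes higher in high cells are red and lower ones blue, and MT1B, MT1M and 2 long noncoding RNAs stand farthest to the upper right.

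Genes of zinc transport moved in both directions in the members. SLC30A1, which exports zinc across the plasma membrane, had 358 CPM in RAC1i members and 37.3 CPM in low cells (ratio 9.59, 95% interval 8.94 to 10.3), and 331 and 39.4 CPM in Combo (8.38, 7.81 to 9.01). It stood at 16.3 CPM over all DMSO cells. Matching on depth left these ratios at 9.16 and 8.03. SLC30A2, which loads zinc into vesicles, was below the level limit for a call, with 129 UMIs against 14 in RAC1i (9.34 CPM in members) and 174 against 27 in Combo (16.1 CPM in members). The other 4 exporter genes of the SLC30 list that were compared were lower in the members of both libraries. SLC30A5 and SLC30A6, which bring zinc into the secretory pathway, had ratios of 0.370 and 0.452 in RAC1i and 0.279 and 0.376 in Combo. SLC30A7 had ratios of 0.607 and 0.629 and SLC30A9 of 0.585 and 0.407. Depth matching ended the calls of SLC30A7 and SLC30A9 in RAC1i (0.709 and 0.731) and of SLC30A7 in Combo (0.785), and it also ended that of the importer gene SLC39A14 in Combo (0.732). Among importers, 2 of 8 were higher and 3 lower in both libraries. SLC39A10, an importer of the plasma membrane, had 136 CPM in the members of each library and 26.5 and 22.5 CPM in low cells (ratios 5.15 and 6.06). SLC39A4, the zinc importer of the gut, had ratios of 3.38 and 3.34, and it passed 20 CPM through the high cells alone. SLC39A1 was at 45.8 against 147 CPM in RAC1i and 40.2 against 158 CPM in Combo, and SLC39A6 and SLC39A14, the latter also an iron carrier, had ratios of 0.443 and 0.474 in RAC1i and 0.320 and 0.471 in Combo. SLC39A7, SLC39A8 and SLC39A9 stayed within 1.5-fold in both libraries.

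SLC30A1 was also the gene whose level followed the metallothionein share most closely. Eligible cells were divided into 10 bins of equal size by metallothionein share, and the correlation of log2 CPM with that of the 5 score genes over the 10 bins was computed for each gene with at least 50 CPM in either extreme group. The lower r of the 2 libraries ranked SLC30A1 first (r = 0.996 in RAC1i and 0.995 in Combo), followed by BHLHE41 (0.994 and 0.992), a circadian transcriptional repressor, and HES1 (0.994 and 0.991), the repressor downstream of Notch. The bins of a library share its depth and cells, and the r is a description over 10 points. From the lowest to the highest bin, SLC30A1 went from 37.3 to 358 CPM in RAC1i and from 39.4 to 331 CPM in Combo, and it increased in each of the 9 steps of both libraries. GADD45B, a stress-induced regulator of growth arrest, went from 181 to 1427 CPM and from 184 to 1434 CPM, also in 9 of 9 steps. SLC39A10 stayed between 26.1 and 27.8 CPM in the first 3 RAC1i bins and then increased. PAX8, CD24 and CLDN7 were lowest in the highest bin of both libraries. Median depth also differed between the end bins, at 26496 UMIs in the lowest and 12291 in the highest in RAC1i, and at 33882.5 and 12267 in Combo.

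**Figure D4:**
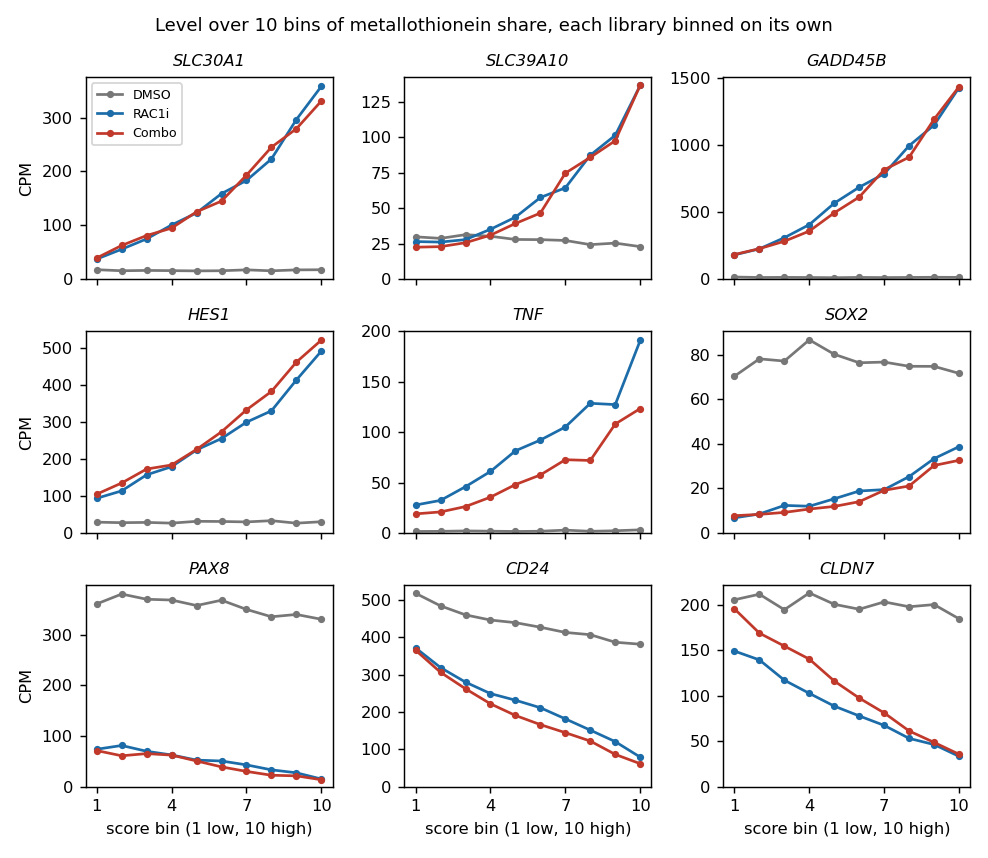
Level (y axis, CPM) of 9 genes over 10 equal-sized bins of metallothionein share (x axis), binned separately in DMSO, RAC1i and Combo. SLC30A1, GADD45B and HES1 increased in 9 of 9 steps in both treated libraries, while PAX8, CD24 and CLDN7 were lowest in the highest bin and the DMSO lines for SLC30A1, GADD45B and HES1 stayed near the bottom of their panels.

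The genes with the largest ratios beyond the metallothioneins had few UMIs in low cells. Most of them passed the limit of 20 CPM through the high cells alone, a filter that favours large ratios, so they are given as a description. The long noncoding RNA AL592464.3, on chromosome 1, had 331 UMIs in RAC1i members and 1 in low cells, and 575 and 9 in Combo. LINC02757, on chromosome 11, had 367 and 4 UMIs, and 754 and 16. In DMSO they stood at 0.00509 and 0.402 CPM. Like the minor metallothioneins, both were seen in a subset of members. AL592464.3 was seen in 95 RAC1i members (10.3%) and 82 Combo members (11.2%), and LINC02757 in 123 (13.4%) and 125 (17.0%). In RAC1i 50 members had both, which is 52.6% of those with AL592464.3 and 40.7% of those with LINC02757, and in Combo 54 had both (65.9% and 43.2%). Members held 54.3% and 56.8% of all AL592464.3 UMIs of their library, although they made up 10% of its eligible cells. Of the AL592464.3 UMIs in members, the 10 members with the most held 44.7% and 58.6%, and for LINC02757 30.8% and 36.6%. HMOX1, which degrades heme, had 290 UMIs against 19 in RAC1i (21.0 CPM in members, ratio 28.0, 95% interval 17.6 to 47.2) and 23.4 against 1.59 CPM in Combo (14.7, 10.5 to 21.2). It was seen in 12.2% of RAC1i members and 14.1% of Combo members. The 10 members with the most HMOX1 held 41.0% and 45.8% of its UMIs in members, so these ratios rest largely on few cells. NPTX1, a secreted neuronal pentraxin, had ratios of 14.2 and 20.2, and VSTM1, an immune receptor, of 12.7 and 21.2. RGS16, which shortens signalling by G proteins, had ratios of 10.3 and 14.4. The histone H4 gene HIST2H4B had ratios of 13.9 and 19.9 and it has a near-identical copy whose reads may be split with it. The noncoding RNA AC048341.2 had 22.0 against 2.01 CPM and 21.8 against 1.79 CPM. After depth matching, HMOX1, NPTX1, VSTM1, HIST2H4B and AC048341.2 were under 20 CPM in both libraries and were not called, with ratios from 4.77 to 20.7.

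Several stress-induced regulators and many ID, HES and AP-1 genes compared were higher in the members. GADD45B was at 1427 CPM in RAC1i members and 181 CPM in low cells (ratio 7.89, 95% interval 7.64 to 8.15), and at 1434 and 184 CPM in Combo (7.80, 7.54 to 8.06). DMSO cells had 12.9 CPM. GADD45G, which passed 20 CPM through the high cells alone, had ratios of 9.27 and 6.86. Of the GADD45 and p53 target list as a whole, 3 of 9 genes were higher and 1 lower in RAC1i, and 3 of 10 higher and 2 lower in Combo, with medians of 0.19 and −0.23 and with ZMAT3 at ratios of 0.617 and 0.378. Of 9 ID and HES repressors compared, 7 were higher and 0 lower in each library, with medians of 1.27 and 1.18 on the log2 scale, and after depth matching 6 of 9 and 5 of 9 were higher (1.04 and 0.84). HES1 stood at 491 against 93.6 CPM and 521 against 105 CPM, and SNAI1, a repressor of epithelial genes, at ratios of 4.22 and 6.75. SNAI1 passed 20 CPM through the high cells alone. Of the AP-1 and immediate early factors, 13 of 19 were higher and 1 lower in RAC1i (median 0.93), and 11 of 18 higher and 1 lower in Combo (0.79). After depth matching 11 of 17 and 9 of 18 were higher and 0 lower (0.89 and 0.58). JUNB had ratios of 3.89 and 3.73 and IER5 of 3.59 and 4.18, while BTG1, which restrains proliferation, had 0.634 and 0.524 and was no longer called after depth matching (0.786 and 0.675).

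NF-kB feedback genes and TNF followed the same direction. In RAC1i, 9 of 14 were higher and 2 lower (median 1.00), and in Combo 8 of 13 were higher and 2 lower (0.93). After depth matching 9 of 14 and 7 of 13 were higher and 2 lower in each, with smaller medians (0.81 and 0.64). TNF itself was at 191 against 27.7 CPM (ratio 6.88, 95% interval 6.33 to 7.49) and at 123 against 18.9 CPM (6.51, 5.85 to 7.24), and at 1.99 CPM in DMSO cells. TNFAIP3, the deubiquitinase that ends NF-kB signalling, had ratios of 6.30 and 6.08. In Combo, both TNF and TNFAIP3 passed 20 CPM through the high cells alone. The 2 lower members were TNFAIP2 (0.327 and 0.355) and TNIP2 (0.315 and 0.314). In RAC1i, TNIP2 passed 20 CPM through the low cells alone. To compare shares of cells at equal depth, each cell was thinned to 5000 UMIs. TNF was then seen in 40.1% of RAC1i members (95% Clopper-Pearson interval 36.9 to 43.4, for counting error within 1 library only) and 9.02% of low cells (7.25 to 11.1), and unthinned in 57.3% and 25.2%. In Combo the thinned shares were 31.2% and 6.67%, and the unthinned ones 48.3% and 19.3%. Chemokines and cytokines were mostly too low for a comparison. Of the 6 compared in RAC1i 5 were higher, and of the 4 compared in Combo 3, with CXCL3 at ratios of 3.77 and 2.97 and CXCL2 at 3.36 and 3.51, both of which passed 20 CPM through the high cells alone. With depth matched, 4 of 5 chemokines and cytokines were higher in RAC1i and 3 of 4 in Combo. ERK feedback genes were higher in 6 of 10 cases in RAC1i and 5 of 9 in Combo, with 1 lower in each. With depth matched, 6 of 10 were higher and 1 lower in each library. The 2 genes named next passed 20 CPM through the high cells alone. ETV4 had ratios of 4.49 and 3.46 and SPRY1 was at 35.5 against 8.49 CPM and at 22.5 against 7.48 CPM, while DUSP8 had ratios of 0.417 and 0.322.

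GADD45B, NFKBIA, HES1, ID2, JUNB, ID1 and EID2, which were picked earlier from these same samples as genes of a cell differentiation and development cluster, were higher in the members of both libraries in 7 of 7 cases. Their medians were 1.96 and 1.89, and 1.48 and 1.41 after depth matching. Because that choice was made on these samples, the list is not independent evidence of a direction. HES1, JUNB and GADD45B also belong to the ID and HES, AP-1 and GADD45 lists above, which are thus not fully independent of that choice either. Actin, SRF and YAP targets were higher in 7 of 14 cases and lower in 1 in RAC1i, and higher in 4 and lower in 1 of 14 in Combo. Depth matching left 4 higher and 1 lower in each. CCN2, a matrix protein induced by YAP, had ratios of 4.59 and 3.87, and TPM1, a tropomyosin, 0.599 and 0.475. RAC1, the target of the inhibitor, was at 414 against 675 CPM in RAC1i (ratio 0.613) and at 372 against 658 CPM in Combo (0.566), and depth matching ended both calls (0.745 and 0.772). Of the PRC2 and RAC1 list, 0 of 5 genes were higher and 1 lower in RAC1i, and 0 higher and 3 lower in Combo, and after depth matching 0 of 5 were called in either library.

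PAX8, CD24 and CLDN7 were lower in the members, while the epithelial and lineage lists held genes called in both directions. PAX8, the transcription factor of the Müllerian lineage, was at 15.4 against 74.1 CPM in RAC1i (ratio 0.207, 95% interval 0.179 to 0.239) and at 13.9 against 71.2 CPM in Combo (0.195, 0.164 to 0.230), while DMSO cells had 357 CPM. PAX8 passed 20 CPM through the low cells alone in both libraries, so its values are a description. CD24, a surface glycoprotein used as a stemness marker, was at 79.2 against 371 CPM and at 61.7 against 364 CPM. CLDN7, a tight junction protein, had ratios of 0.224 and 0.183. After depth matching the ratios of PAX8, CD24 and CLDN7 lay between 0.252 and 0.309. Of the epithelial adhesion and keratin list as a whole, 1 of 13 genes was higher and 4 lower in RAC1i, and 1 of 11 higher and 5 lower in Combo, with medians of −0.48 and −0.50 that are near those of all genes. After depth matching 7 of 12 were lower and 0 higher in Combo, with a median of −0.65 against −0.33 for all genes. In RAC1i the matched counts were 4 of 13 lower and 1 higher, with a median of −0.34, near the −0.28 of all genes. The epithelial transcription factor ELF3 was the higher one, at 707 against 337 CPM and 615 against 351 CPM, and depth matching ended its call in Combo (1.31). Of the serous and secretory lineage list, 1 of 10 was higher and 3 lower in RAC1i and 3 were higher and 3 lower in Combo, with medians of 0.17 and 0.14. MSLN, mesothelin, had ratios of 2.10 and 1.95 and MUC1, a mucin, 0.382 and 0.458. SOX2, a stemness factor, went the other way from CD24, with 38.8 against 6.79 CPM in RAC1i (ratio 5.71) and 32.6 against 7.73 CPM in Combo (4.22), and it passed 20 CPM through the high cells alone. DMSO cells had 77.0 CPM of SOX2, above both treated groups. Of 14 stemness genes, 3 could be compared, with 1 higher and 1 lower in each library.

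The 12 genes with the largest fall in both libraries had ratios between 0.0662 and 0.214. MACC1, which regulates the MET receptor gene, was at 11.9 against 80.4 CPM in RAC1i (ratio 0.148) and 6.19 against 73.3 CPM in Combo (0.0845). GPNMB, a glycoprotein of lysosomes and melanosomes, had 60 UMIs against 815 and 25 against 858 (ratios 0.135 and 0.0662). ARMC1, C19orf12, ZMYM1, TMTC1, ZMYND19, GALNT3, CPTP, OTULINL, TIGAR and CD24 made up the rest. GALNT3, which starts O-glycosylation, had ratios of 0.200 and 0.155. After depth matching, the ratios of the 12 ranged from 0.197 for C19orf12 in Combo to 0.413 for TIGAR, which lowers glycolytic flux, also in Combo. They were chosen for the size of the difference, and most passed the limit of 20 CPM through the low cells alone, so these values are a description.

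Nuclear noncoding RNAs and mitochondrial transcripts did not move together. MALAT1, which is retained in the nucleus, was at 6853 against 19388 CPM in RAC1i (ratio 0.353) and at 8395 against 23718 CPM in Combo (0.354). NEAT1, the scaffold of paraspeckles, had ratios of 0.395 and 0.333. After depth matching MALAT1 had 0.309 and 0.312 and NEAT1 0.378 and 0.306. Both were also lower in DMSO cells ranked by the same rule. From the lowest to the highest of the 10 DMSO bins, MALAT1 went from 32348 to 18046 CPM and NEAT1 from 11703 to 6318 CPM. The cytoplasmic RNA NORAD had ratios of 2.10 and 2.16. Of the list of long nuclear RNAs, which holds NORAD although it is mainly cytoplasmic, 2 of 7 were higher and 2 lower in RAC1i, and 1 higher and 3 lower in Combo. In DMSO 0 of 6 were higher and 3 lower, while 1.64% of all genes were lower there. Transcripts of the mitochondrial genome were higher in 5 of 12 cases in RAC1i and 9 of 13 in Combo (medians 0.48 and 0.95), with MT-ND2 at ratios of 2.32 and 3.57. Depth matching took these counts to 0 of 12 and 5 of 13 (medians −0.04 and 0.20). Of 68 nuclear respiratory chain genes, 4 were higher and 14 lower in RAC1i, and 3 higher and 16 lower in Combo, and depth matching left 7 lower in each. ATP5F1D and ATP5PD, subunits of ATP synthase, had ratios of 2.27 and 2.16 in RAC1i and 2.11 and 1.90 in Combo. UQCRFS1, the iron-sulfur subunit of complex III, had 0.312 and 0.205, and SDHD, an anchor of complex II, 0.337 and 0.294.

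**Figure D5:**
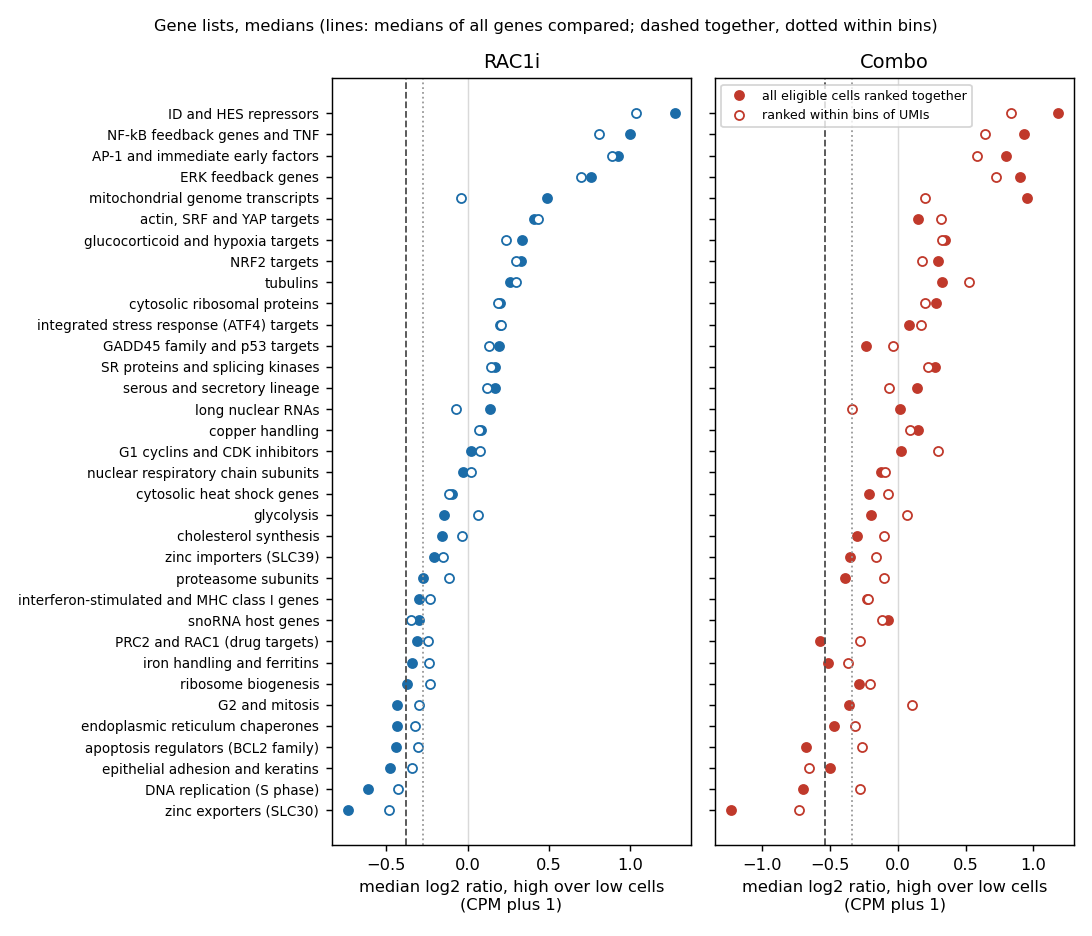
Median log2 ratio of high over low cells (x axis, on CPM plus 1) for each gene list with at least 5 genes compared in both libraries, in RAC1i (left) and Combo (right), with all eligible cells ranked together (filled) or within bins of total UMIs (open). The dashed and dotted lines are the medians of all genes compared (−0.38 and −0.28 in RAC1i, −0.54 and −0.33 in Combo), and among the lists drawn the ID and HES repressors lie farthest to the right in both panels (1.27 and 1.18). The list of genes picked earlier from these samples is not drawn, but some of its genes are in lists that are. HES1 is among the ID and HES repressors, JUNB among the AP-1 factors and GADD45B in the GADD45 list.

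Proliferation genes were called in both directions, with shares of lower genes to be read against 38.9% of all genes in RAC1i and 48.2% in Combo (27.8% and 31.6% after depth matching). Of the S phase genes, 3 of 21 were higher and 12 lower in RAC1i (median −0.61), and 3 of 25 higher and 15 lower in Combo (−0.70), and depth matching brought the lower ones to 4 of 21 and 3 of 27. The subunits of ribonucleotide reductase, which makes deoxynucleotides, went in opposite directions. RRM2 was at 122 against 52.9 CPM in RAC1i and 94.2 against 35.4 CPM in Combo (ratios 2.32 and 2.66), and RRM1 at 16.4 against 38.6 CPM and 15.3 against 40.5 CPM (0.426 and 0.378). These differences stayed after depth matching, at 2.14 and 2.41 for RRM2 and 0.591 and 0.657 for RRM1. Before matching, RRM1 passed 20 CPM through the low cells alone. MCM7, a helicase subunit, had ratios of 1.86 and 2.06. Of the G2 and mitosis genes, 2 of 44 were higher and 19 lower in RAC1i, and 3 of 45 higher and 21 lower in Combo. HMGB2, a chromatin protein, had ratios of 1.86 and 2.28, and ECT2, needed for cytokinesis, 0.399 and 0.361. After depth matching the counts were 1 higher and 13 lower of 44 in RAC1i (median −0.30), and 6 higher and 7 lower of 45 in Combo (0.10). The median share of UMIs from both lists was 0.504% in RAC1i members and 0.528% in low cells, and 0.484% and 0.546% in Combo. Of G1 cyclins and CDK inhibitors, 1 of 8 was higher in RAC1i and 2 in Combo, with 0 lower. CDKN1B, the inhibitor p27, had ratios of 2.06 and 1.81.

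Oxidative and protein stress genes gave no direction common to all lists. The chaperones of the endoplasmic reticulum were lower about as often as all genes (38.9% in RAC1i and 48.2% in Combo). Of the NRF2 targets, 4 of 11 were higher and 1 lower in RAC1i, and 3 higher and 1 lower in Combo. Their medians were 0.33 and 0.29, against −0.38 and −0.54 for all genes. With depth matched, 3 of 10 were higher in each library, and 0 and 1 lower. Among the higher ones before matching, HMOX1 passed 20 CPM through the high cells alone. HMOX1 was the farthest, and GSR, glutathione reductase, had ratios of 0.644 and 0.465 (0.745 and not called in RAC1i after depth matching). Ferritin heavy chain FTH1 was within 1.5-fold, at 17456 against 21053 CPM in RAC1i. Iron handling genes were higher in 0 and lower in 2 of 6 cases in each library, the transferrin receptor TFRC and ceruloplasmin CP. Depth matching ended the call of CP in Combo (0.677), where 2 of 6 were then called lower, not the same 2 as before. Among copper handling genes, 2 of 6 were higher and 2 lower in RAC1i and 1 and 2 in Combo. SOD1, the copper and zinc superoxide dismutase, had ratios of 1.79 and 1.71, and SCO1 and SCO2, which bring copper to cytochrome oxidase, ranged from 0.332 to 0.488. ATF4 targets were higher in 4 and lower in 3 of 14 cases in each library, with DDIT4, an inhibitor of mTORC1, at ratios of 5.05 and 4.55. DDIT4 passed 20 CPM through the high cells alone. Chaperones of the endoplasmic reticulum were higher in 0 and lower in 5 of 14 cases in RAC1i, and higher in 0 and lower in 7 of 15 in Combo, with MANF at ratios of 0.323 and 0.255. Depth matching left 3 of 14 lower in RAC1i, and 3 of 15 lower and 1 higher in Combo. Cytosolic heat shock genes were higher in 6 and lower in 5 of 18 cases in RAC1i, and in 6 and 6 in Combo, where depth matching left 4 higher and 3 lower. CRYAB and HSPA1A were higher (3.18 and 2.48 in RAC1i, 3.30 and 2.02 in Combo), and HSPA4 and HSPE1 lower (0.522 and 0.521, and 0.505 and 0.475). Glucocorticoid and hypoxia targets were higher in 3 of 7 cases in each library and lower in 1 and 2, and after depth matching higher in 2 of 6 and lower in 0. KLF9, a direct glucocorticoid receptor target, was at 21.7 against 2.53 CPM and at 21.0 against 1.55 CPM, and under 20 CPM after depth matching.

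The remaining lists covered ribosomes, splicing, protein turnover, metabolism, interferon genes and apoptosis. Their lower counts are to be read against 38.9% of all genes in RAC1i and 48.2% in Combo, and against 27.8% and 31.6% after depth matching. Before matching, those of ribosome biogenesis, interferon and MHC class I genes lay near or under these shares. Cytosolic ribosomal proteins were higher in 7 of 76 cases and lower in 1 in RAC1i, and higher in 10 and lower in 1 in Combo, with medians of 0.20 and 0.28. RPL32 had ratios of 1.96 and 2.23, and RPS10 0.651 and 0.631. After depth matching 2 of 76 were higher and 0 lower in each library. Ribosome biogenesis genes were higher in 1 of 22 and lower in 7 in RAC1i, and higher in 1 of 24 and lower in 8 in Combo. With depth matched, 7 of 22 were lower in RAC1i and 7 of 24 in Combo, and 0 and 1 higher. Of snoRNA host genes, 1 of 20 was higher and 5 lower in RAC1i, and 3 of 19 higher and 4 lower in Combo, with SNHG15 at 1.81 and 2.00 and SNHG7 at 0.364 and 0.405. SR proteins and splicing kinases were higher in 7 of 25 and lower in 5 in RAC1i, and higher in 6 and lower in 5 of 25 in Combo. TRA2A, a splicing regulator, had ratios of 2.51 and 2.61 and SRSF4 0.440 and 0.436. Proteasome subunits were lower in 4 of 31 cases in RAC1i and 9 of 31 in Combo and higher in 0. Tubulins were higher in 3 of 9 and 3 of 10 and lower in 0, with TUBB2A at ratios of 4.05 and 3.31. TUBB2A passed 20 CPM through the high cells alone. After depth matching, 2 of 31 proteasome subunits were lower in RAC1i and 1 of 31 in Combo, 3 of 24 SR proteins and splicing kinases were higher in RAC1i and 7 of 24 in Combo, and 2 of 8 tubulins were higher in RAC1i and 5 of 11 in Combo. Glycolysis genes were higher in 3 and lower in 2 of 13 cases in RAC1i and higher in 2 and lower in 3 in Combo (2 higher and 1 lower in each after depth matching). PFKL, a phosphofructokinase, had ratios of 3.97 and 4.03, and it passed 20 CPM through the high cells alone. Cholesterol synthesis genes were higher in 1 of 12 in RAC1i and 1 of 14 in Combo, with 0 and 4 lower. Interferon-stimulated and MHC class I genes were higher in 0 of 11 and 0 of 12 cases and lower in 4 in each. With depth matched, they were lower in 4 of 12 cases in RAC1i and 4 of 11 in Combo, and higher in 0. Of apoptosis regulators, 0 were higher and 2 of 5 lower in RAC1i and 4 of 7 lower in Combo, with BAK1, which permeabilises mitochondria, at ratios of 0.269 and 0.197.

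Genes higher in the members of both libraries differed in structure from those that were lower. In GENCODE 44, 10.2% of the 451 higher genes with an entry were long noncoding RNAs, against 1.18% of the 2126 lower genes and 2.38% of all 5544 compared. Their median genomic span was 13674 bases, against 35639 bases in the lower and 29628 bases in all genes, and 27.5% of them spanned under 5000 bases, against 6.26% and 10.2%. The largest number of exons in an annotated transcript had a median of 5, against 10 and 9. After depth matching, 7.28% of the 302 higher genes were long noncoding RNAs and 27.2% spanned under 5000 bases, against 1.62% and 6.76% of the 1361 lower genes. A check of the metal response element core over these sets was void, because 71.4% of the higher genes had an entry in the promoter table, under the 80% needed. These are counts over genes and not a test.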

How the data were processed

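Single-cell 3′ mRNA libraries of OVCAR3 cells (DMSO, RAC1i and Combo, 1 each) were analysed. Per the labels and the study's methods, the authors made the deposited UMI counts with Cell Ranger 4.0.0 on GRCh38. The barcodes numbered 10071, 11772 and 9757. The study's limits were applied (over 1000 genes detected, a mitochondrial share of no more than 20%, a complexity above 0.8), which left 7531, 10215 and 8239 cells, and those with 5000 or more UMIs were ranked. Their total UMIs were 196341800, 231604423 and 209857287. No doublet caller was run, and an alternative left out the 8% of cells with the most UMIs. UMIs were summed per group with numpy 2.4.6, and scipy 1.17.1 gave exact intervals. Ratios used CPM, and log2 ratios CPM plus 1. Paralogs and overlapping genes were left as counted. Named genes were those 12 that rose most and those 12 that fell most in both libraries at 20 CPM or more (by the smaller absolute log2 ratio), the 2 highest and 2 lowest of each of 40 gene lists, all metallothioneins and zinc transporters, and the 3 most like the score over 10 bins. Genes whose shares of members are given were chosen after their values were seen. Of 36601 gene IDs, 36366 matched GENCODE 44 (GRCh38). edgeR 4.0.16 and DESeq2 1.42.0 gave scaling factors only. The calculations were tested on simulated data. Members, lists and rules were chosen with earlier results of these data known, so nothing here is independent support for a pattern already seen in them. Replicate error could not be measured with 1 library per condition. Results of a few named genes are not reported here.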

Additional observations from a re-analysis of the deposited data

Results flagged for a closer look

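Among named genes, 4 were at least 1.5-fold different in opposite directions in treated and in DMSO cells ranked by the same rule, and these differences were not tested. ELF3 was higher in high cells in RAC1i (log2 ratio 1.07) and Combo (0.81) and lower in DMSO (−0.59). BHLHE41 was higher in RAC1i (1.39) and Combo (1.42) and lower in DMSO (−0.60). CLU, a secreted chaperone, was higher in Combo (0.95, against 0.51 in RAC1i) and lower in DMSO (−0.94). The imprinted noncoding RNA KCNQ1OT1 was higher in RAC1i (0.61, against 0.18 in Combo) and lower in DMSO (−0.84). Ranking within bins of UMIs ended this opposite direction, with −0.071 in RAC1i and −0.55 in Combo. The high DMSO cells had a median metallothionein share of 0.0616% of UMIs, below that of most treated cells, and 326 of 672 of them were chosen again on the other part of their UMIs.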

How the results depend on the processing

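The 6 counts of genes higher or lower were recomputed under 18 alternatives. Without a minimum CPM they were 9598 higher and 7634 lower in RAC1i, 8522 and 9172 in Combo, and 6067 and 5734 in both, since genes with few UMIs enter. Ranking within bins of UMIs gave 1835 lower in Combo and 302 higher and 1361 lower in both. Bins of UMIs and cell cycle genes gave 351 higher and 1869 lower in Combo and 296 higher and 1390 lower in both. The cause was not tested. The other counts stayed within 1.5 times. DESeq2 size factors gave 755 higher and 2176 lower in Combo (25.8% higher), with a median of −0.34. KCNQ1OT1 in RAC1i, at a log2 ratio of 0.61, turned to −0.071 within bins of UMIs and −0.076 within bins of UMIs and cell cycle genes. The metallothionein level of RAC1i members was 38293 CPM on unused UMIs against 38567 CPM on all, a difference past its counting interval. Of 2808 values of named genes in RAC1i 1916 stayed within the counting interval of the reported value, 890 moved beyond it without reversing a call and 2, those of KCNQ1OT1, changed the sign of a gene called 1.5-fold, and of 2826 in Combo 1792, 1034 and 0. For list medians, with the same limit for a reversal, these were 559, 125 and 0 of 684 in RAC1i and 457, 227 and 0 in Combo. Smaller values did cross 0, among them KCNQ1OT1 in Combo (0.18 to −0.55 within bins of UMIs) and the medians of mitochondrial transcripts in RAC1i (0.48 to −0.04) and of G2 and mitosis genes (−0.36 to 0.10) and glycolysis genes (−0.20 to 0.07) in Combo. No paired analysis was possible because each condition had 1 library. With 1 library per condition, treatment and library cannot be told apart, and the intervals cover counting error only.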
